A study of Homo sapiens with 2 samples.

Results

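The genes described here are MKL1, SMTN, SRF, MYL9 and TAGLN, 5 genes of the pathway that couples actin to transcription through serum response factor, and their called FOXO3 peaks in U87MG, a human glioblastoma cell line. Members were the peaks whose summit, the position of highest signal, lay in a fixed hg19 window around each gene. These windows held 5 of the 9717 called peaks, in 3 of the 5 genes: 2 at MKL1, 2 at SMTN and 1 at MYL9, with none at SRF or TAGLN. The genes were chosen by the fold enrichment of peaks in this same list, since MKL1 and SMTN hold peaks of very high fold, so their values are a description and carry no test. In CETCh-seq the cell's own copy of a factor is edited to carry an epitope, here FLAG, through which its chromatin is immunoprecipitated. The series holds 1 FLAG library and 1 input library. The labels give U87MG with genotype WT and LY294002 treatment for both, and LY294002 inhibits phosphoinositide 3-kinase. The samples included no untreated group. Whether the input chromatin was from edited cells, and whether the edited cells were a single clone, is not in the labels, and replicates of the FLAG library were not analysed here.

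MKL1, now named MRTFA, is a coactivator that monomeric actin holds in the cytoplasm. When actin polymerizes, MKL1 is released, enters the nucleus and joins SRF, a transcription factor that binds a sequence called the CArG box. Their joint targets include genes of the contractile apparatus, and SRF is among its own targets. SMTN encodes smoothelin, a cytoskeletal protein of contractile smooth muscle, MYL9 a regulatory light chain of myosin, and TAGLN transgelin, an actin-binding protein. FOXO3 is a forkhead factor that phosphoinositide 3-kinase signalling through AKT keeps out of the nucleus.

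The sequence under the peaks could not be shown, since no hg19 sequence was used here. The bases before RefSeq gene starts (GRCh38.p14) are given instead for 3 of the 5 genes, MKL1, SMTN and SRF, which have 9 listed starts. The 250 bases before each start were searched on both strands for the FOXO sequence GTAAACA and for the CArG box. No start held both. The first start of SRF held 2 CArG boxes. It is shown because its window had no called peak. The last start of SMTN held 1 CArG box, the first start of SMTN 1 FOXO match, and the innermost of the 3 MKL1 starts 1 FOXO match. The lines give the 250 bases before the first SRF start (chr6:43171019-43171268, + strand), then stretches of 30 bases from the first SMTN start (chr22:31063893-31063922, + strand), the last SMTN start (chr22:31084942-31084971, + strand) and the innermost MKL1 start (chr22:40463661-40463690, - strand), all GRCh38.p14, with matches in capitals. The SMTN FOXO match is on the other strand and so appears as the reverse complement.
SRF first start: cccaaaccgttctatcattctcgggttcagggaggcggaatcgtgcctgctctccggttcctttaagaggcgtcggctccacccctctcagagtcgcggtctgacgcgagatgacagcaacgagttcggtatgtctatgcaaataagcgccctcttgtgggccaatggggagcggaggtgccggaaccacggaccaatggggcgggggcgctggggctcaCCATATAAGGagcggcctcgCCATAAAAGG
SMTN first start: ccttacggtcTGTTTACatacctaattaga
SMTN last start: cggggccgggCCATATAAGGaaaagctagg
MKL1 innermost start: tggtgGTAAACAtttgttaagcgtagagca

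Of 35116 RefSeq gene starts, 2.98% held the FOXO sequence and 1.16% a CArG box in the same 250 bases. A match is a description of the letters and not a binding site. Positions in GRCh38.p14 were not converted to the hg19 positions of the peaks, so whether a peak covers the SMTN matches or the innermost MKL1 start was not determined.

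MKL1, the coactivator, had 1 very strong peak upstream of the gene and 1 weak peak far downstream of its 5′ end. The strong peak lay on chromosome 22 from 41042180 to 41042786 (hg19), with its summit at 41042511. The gene is read from the minus strand and its 5′ end lies at about 41032700, so this summit was 9.81 kb upstream. Its fold enrichment was 17.3, with a 95% Poisson interval from 14.6 to 20.3. Fold here is the FLAG pileup at the summit over the background estimated by the peak caller, with 1 tag added to each, and the interval covers counting error of the pileup only. The pileup was 145 tags over a background of 7.45 tags, and the −log10 q was 124. By fold the peak ranked 16 of 9717, and by width, at 607 bp, it ranked 263.

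The weak MKL1 peak lay from 40894458 to 40894788, 138 kb downstream of the 5′ end. Its fold was 3.46 (2.29 to 5.04), from 25 tags over 6.52, with a −log10 q of 4.62. It ranked 6747 by fold, below the list's median of 3.88. The strong peak had 5.00 times its fold, and their intervals did not overlap. The summits were 148 kb apart with no other called summit between them. On the far sides, the nearest summits were 454 kb and 610 kb away. The nearest called summit to the MKL1 5′ end was the strong one, so no summit fell in the 250 bases before that end. In the GRCh38.p14 gene order the next protein-coding gene beyond the MKL1 5′ end is MCHR1.

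SMTN, which encodes the smooth muscle protein smoothelin, also had 1 very strong and 1 weaker peak. The strong peak lay on chromosome 22 from 31451484 to 31452071, with its summit at 31451787, 11.8 kb into the 71 kb window. Its fold was 18.1 (15.4 to 21.1), from 156 tags over a background of 7.68, with a −log10 q of 136 and a width of 588 bp. It ranked 12 by fold in the list. The second SMTN peak lay from 31498429 to 31498884, 46.9 kb beyond the first in the direction of transcription and 12.3 kb before the end of the window. Its fold was 4.40 (3.46 to 5.51), from 73 tags over 15.8, with a −log10 q of 21.2.

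The second SMTN peak had a modest rank by fold, 3309, but a high one by pileup, 388, and by q, 956. Its background was among the highest in the list, with only 1.60% of peaks above it. The first SMTN peak had 4.11 times its fold. In the GRCh38.p14 annotation the neighbours of SMTN listed as protein-coding are TUG1 on one side and SELENOM on the other. That class is the annotation's own and was not checked here. No hg19 gene model was used to place either peak in an exon or intron.

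**Figure D1:**
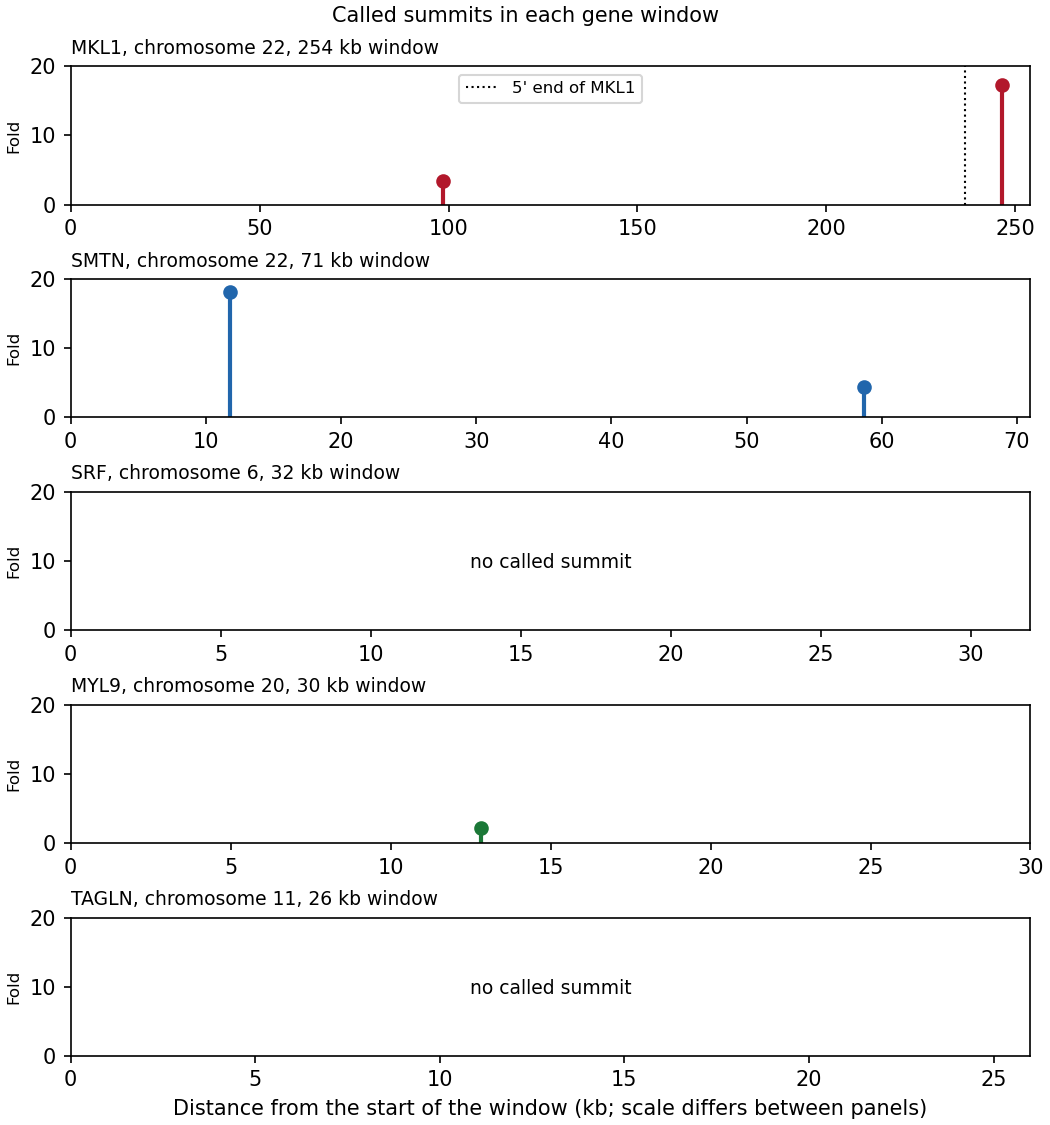
Fold enrichment of each called summit (vertical axis, ratio) against its distance from the start of the gene window (horizontal axis, kb, with a different scale in each panel). The strong MKL1 summit lies 9.81 kb outside the 5′ end marked by the dotted line, the strong SMTN summit lies 11.8 kb into its window, and the SRF and TAGLN windows are empty.

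The 2 strong peaks were close to each other in fold, background, width and summit position. Their folds of 18.1 and 17.3 differed by a ratio of 1.05 and their intervals overlapped, so their order is within counting error. Their backgrounds were 7.68 and 7.45 tags, their widths 588 and 607 bp, and their summits sat at 51.5% and 54.5% of the peak's length. They were the peaks of highest and second highest fold among the 92 on chromosome 22, where the next highest was 12.3. By −log10 q they came after that peak, from 31686416 to 31687100, which had 252 tags over a background of 19.6 and a −log10 q of 175. It lay 235 kb beyond the strong SMTN summit. The strong SMTN and MKL1 summits were 9.59 Mb apart, with 42 called peaks between them.

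The shape of the strong peaks was near that of other peaks of similar strength. The list held 32 peaks of fold 15 or more, these included. Their median width was 673 bp (318 to 1014 bp) and their median pileup 146 tags over a median background of 7.45. Their summits sat between 30.1% and 63.8% of the peak's length, with a median of 48.8%. Of the 32, 17 had another called summit within 100 kb. The strong SMTN peak was one of these and the strong MKL1 peak, with its nearest neighbour at 148 kb, was not.

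**Figure D2:**
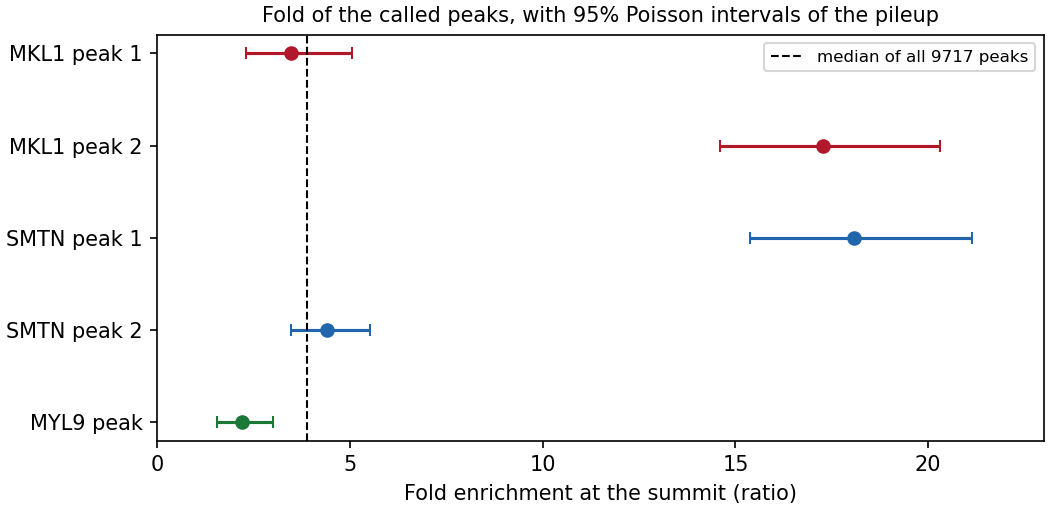
Fold enrichment of the 5 peaks (horizontal axis, ratio), as points with bars for the 95% Poisson interval of the pileup, beside the median of all 9717 peaks at 3.88 (dashed line). MKL1 peak 2 at 17.3 and SMTN peak 1 at 18.1 overlap each other and stand apart from the other 3 peaks, which lie between 2.18 and 4.40.

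MYL9, the myosin light chain gene, had 1 peak close to the limit of detection. It lay on chromosome 20 from 35171732 to 35171936, 12.8 kb into its 30 kb window. Its fold was 2.18 (1.54 to 3.01), from 35 tags over 15.5, with a −log10 q of 2.06. It ranked 9673 by fold, and only 0.453% of peaks had a lower fold. By q it ranked 9082, and 6.53% of peaks had a lower −log10 q. Its background was close to that of the second SMTN peak, 15.5 against 15.8 tags, but its pileup was 35 against 73 tags. The fold intervals of these 2 peaks did not overlap when only the pileup's counting error was taken. With the pileup held and only the control's error taken, the second SMTN peak ranged from 2.81 to 7.24. That range overlaps the MYL9 interval, but the 2 hold different errors. Among the 57 peaks with a background within 0.5 tags of that at MYL9, the median pileup was 64 tags and the smallest called was 33. The nearest other summits were 416 kb and 290 kb away.

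**Figure D3:**
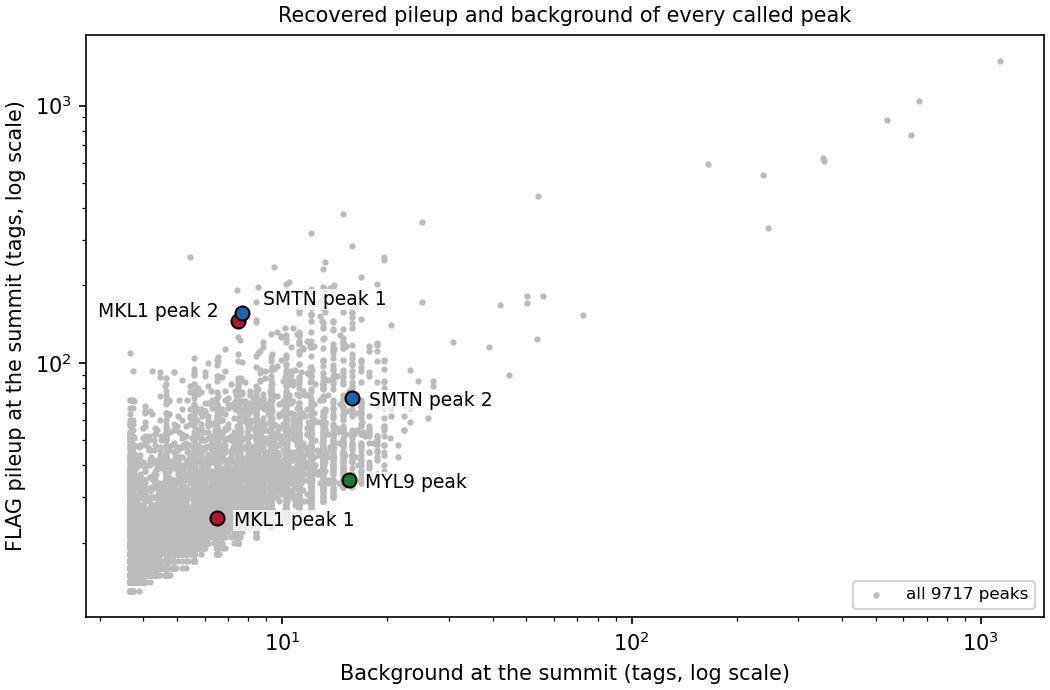
FLAG pileup (vertical axis, tags, log scale) against background (horizontal axis, tags, log scale) at the summit of all 9717 peaks in grey, with the 5 peaks in colour. MKL1 peak 2 and SMTN peak 1 nearly coincide at 145 and 156 tags over 7.45 and 7.68, whereas SMTN peak 2 and the MYL9 peak share a background near 15.8 and 15.5 tags with pileups of 73 and 35.

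SRF, the DNA-binding partner of MKL1, had no called peak in its window of 32 kb on chromosome 6 from 43128000 to 43160000. The nearest summits lay 146 kb before it, in a peak of fold 6.02 (4.04 to 8.66), and 508 kb after it, in a peak of fold 7.62 (6.29 to 9.15). The span between them was 686 kb, and 10.3% of the 9647 gaps between neighbouring summits were at least as long, against a median gap of 99.6 kb. TAGLN, the transgelin gene, had none in its window of 26 kb on chromosome 11 from 117060000 to 117086000. A peak from 117049288 to 117049592 lay just outside, 10.6 kb before the window. Its fold was 3.88 (2.79 to 5.27), from 39 tags over 9.31. In the GRCh38.p14 order the gene before TAGLN is SIDT2, and this peak was not assigned to either gene. The next summit on the other side was 1032 kb away, and 5.56% of gaps were at least as long as the 1069 kb between these summits. The shares given for SRF and TAGLN count each gap once. A long gap is more likely to hold a given gene than a short one, so neither share measures how unusual these spans were.

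An empty window does not show that FOXO3 was absent. At the genome-wide background of 3.65 tags the smallest called pileup was 13 tags, a fold of 3.01, so a weaker site was not detectable at this depth. Where the local background was higher the limit in tags was higher too. The lowest called pileup was 33 tags at backgrounds near that of MYL9.

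The nearest summits outside each window ranged from folds of 2.59 to 7.62, and both at SRF and 1 at SMTN lay above the list's upper quartile of 4.798. Besides those at SRF and TAGLN, they had folds of 4.66 and 2.59 at MKL1, 4.95 and 4.11 at SMTN, and 3.36 and 3.42 at MYL9. The closest of these 6 was 58.7 kb beyond the SMTN window.

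The number of peaks in a window is read against tiles of the same length laid over chromosomes 1 to 22 and X, gaps in the assembly included. Of tiles as long as the MKL1 window, 41.5% held at least 1 summit, 19.5% at least 2 and 1.88% a peak of fold 10 or more. For tiles as long as the SMTN window these shares were 17.1%, 4.15% and 0.532%. At least 1 summit was found in 8.75% of tiles of the SRF length, 8.28% of the MYL9 length and 7.29% of the TAGLN length. An empty window was thus the usual state at the lengths used for SRF and TAGLN, and 2 summits in 254 kb were common. Of the 5 peaks, 2 had a fold of 10 or more, against 2.26% of all peaks, and 3 had a −log10 q of 10 or more, against 25.5%. The genes were chosen for these strong peaks, so nothing is read from these shares.

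**Figure D4:**
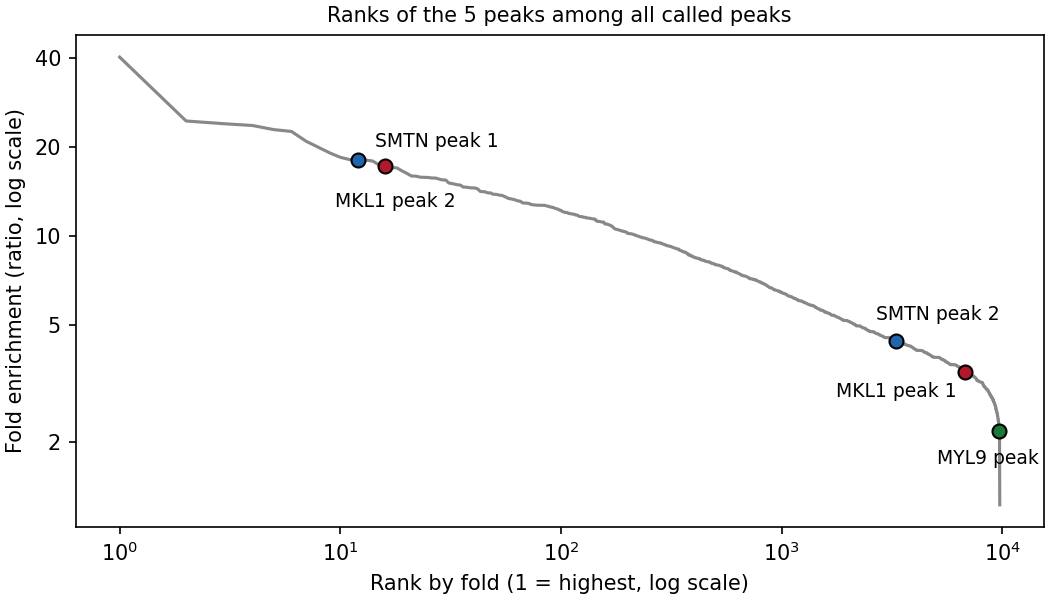
Fold enrichment (vertical axis, ratio, log scale) of all 9717 peaks in order of rank (horizontal axis, log scale), with the 5 peaks marked. SMTN peak 1 and MKL1 peak 2 sit at ranks 12 and 16, SMTN peak 2 at 3309, MKL1 peak 1 at 6747 and the MYL9 peak at 9673.

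The backgrounds of 3 of the 5 peaks rest on few control tags. In 53.7% of the 7815 local backgrounds under 20 tags the value was a whole multiple of 0.931 ChIP tags within a tolerance of 0.001 tags, taken as the worth of 1 control tag. The backgrounds of both MKL1 peaks and of the second SMTN peak were such multiples, of 8 control tags at the strong MKL1 summit, 7 at the weak one and 17 at the second SMTN summit. With 8 tags, the 95% Poisson interval of the control runs from 3.45 to 15.8 tags. At its upper end the fold of the strong MKL1 peak would be 9.31. At its lower end it would be at most 31.4, the fold over the genome-wide background. A wider control window could give a higher background there, so 31.4 is a ceiling, as are the upper folds given next. The same bounds of the control, with the pileup held at its value, gave 1.80 and 5.59 for the weak MKL1 peak. On control error alone the ranges of the 2 MKL1 peaks did not overlap. Ranges holding both errors were not computed, so whether these 2 peaks stay apart is not settled here. For the second SMTN peak the bounds gave 2.81 and 7.24, again with the pileup held. That range overlaps the MYL9 interval of 1.54 to 3.01, but the MYL9 interval holds pileup error only, so the 2 are unlike measures. The backgrounds of the strong SMTN peak and of the MYL9 peak equalled 55 and 111 control tags per kb, as a window wider than the peak gives. The printed intervals of fold leave this error out, and at the strong MKL1 peak they are narrower than it.

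Other genes of the pathway, among them further SRF cofactors, cytoskeletal targets and early response genes, were not analysed here, since placing peaks at them needs hg19 gene positions.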

How the data were processed

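One FLAG library of LY294002-treated U87MG cells was analysed as its list of called peaks. The submitters' processing notes name hg19 as build and list Trimmomatic, HISAT2 and MACS2. Not given in the sources used here are their versions, their parameters and which library was the control. The deposited fold is a ratio of FLAG pileup to background at the summit, the deposited −log10 columns are the caller's p-value and q-value, and the deposited score column restates the −log10 q and was not used. Fold and −log10 p-value were solved together for a whole-number pileup and a background (largest error of the −log10 p-value 5.0e-04), which was checked on simulated data. Intervals are exact 95% Poisson. Control tags were inferred with an extension of 150 bp, the narrowest peak width. Python 3.11.15, NumPy 2.4.6, pandas 2.3.3, SciPy 1.17.1 and Matplotlib 3.10.9 were used.

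All 5 genes are named with every called peak in their windows and the nearest summits outside. Genes, windows and lists were chosen with earlier results of these data known. The MKL1 5′ end is that given with its window. Alternatives changed the q or fold threshold, the window, the joining of peaks and the background. Total tag counts were not analysed here. With 1 FLAG library there were no replicates and no test was made.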

Additional observations from a re-analysis of the deposited data

How the results depend on the processing

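The number of called peaks in the windows was 5. It fell to 3 at a −log10 q of at least 5, to 3 at a −log10 q of at least 10 and to 2 at a fold of at least 5, where the strong MKL1 and SMTN peaks were left. With windows widened by 50 kb on each side it was 6, the addition being the peak before TAGLN, and 4 of the 5 genes then had a peak. Counting any overlapping base, or joining peaks within 500 bp, left it at 5. The genes with a peak numbered 2, MKL1 and SMTN, at each of the 3 stricter thresholds, since the MYL9 peak passed none of them. Over the genome-wide background in place of the local one, the fold of the strongest MKL1 peak was 31.4 and that of the strongest SMTN peak 33.8. With no tag added they were 19.5 and 20.3, inside the printed intervals. Of 15 alternative settings, 10 left a count within 1.5 times or a fold inside its interval, and 5 did not. No paired analysis was possible because the series has 1 FLAG library and no result comes from a test.

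Depth limits what an empty window can show, since no pileup below 13 tags was called. With 1 library, the spread between cultures is unknown, and sequenced tags are not independent molecules.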
